A study of Setaria italica with 18 samples.

Results

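The change in JK3 leaves between 12 and 24 h of saline-alkali treatment was measured in the 3 JK3 libraries of 24 h (J24) against the 3 JK3 libraries of 12 h (J12), which are 6 of the 18 libraries in the series and were chosen by variety and time alone. JK3 is a variety of foxtail millet (Setaria italica) that the study describes as salt tolerant. Seedlings with 3 leaves were given 75% artificial seawater, and the 2nd and 3rd leaves were taken for RNA sequencing at 0, 12 and 24 h, with 3 biological replicates a time. The 3 JK3 libraries of 0 h (J0) gave the state before treatment, and the salt-sensitive variety B175, treated and sampled in the same way at 24 h (B24) and 12 h (B12), was used to ask whether a change was particular to JK3. All the groups compared received the same seawater except J0, and the plants were kept under 12 h of light and 12 h of dark, so that J24 and J0 were sampled at the same time of day and J12 at the opposite one. No untreated leaves of 12 or 24 h were analysed here. An effect of the time of day and an effect of the treatment therefore cannot be told apart in J24 vs J12 or in J12 vs J0. Each variety is 1 line, and whether the replicates of different times share plants, trays or days is not given in the sources used here.

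A leaf carries a circadian clock, in which genes that peak at dawn and genes that peak at dusk repress each other and set the daily rise and fall of many others, among them genes of photosynthesis, sugar use and water transport. Salt withdraws water from the cell and brings in sodium. Plants are known to answer with abscisic acid (ABA), a hormone of water shortage, with late embryogenesis abundant (LEA) proteins and dehydrins, which protect dried cells, with heat shock proteins, which keep other proteins folded, and with pumps and exchangers that move ions into the vacuole or out of the cell.

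The values are FPKM (fragments per kilobase of gene model, relative to the fragments of the library), which were scaled here so that the typical gene had the same value in every library. Of 29108 genes in the table, 23824 passed a filter on low values. The JK3 libraries held between 34738947 and 38799089 fragments, so that depth differed little between the times. The share of all FPKM taken by the 100 most abundant genes did differ, at 22.0, 21.1 and 19.7% in the J24 libraries and 13.4, 13.2 and 12.8% in the J12 libraries, against 24.2, 22.3 and 25.6% in the J0 libraries. Without the scaling the median gene was therefore lower by 0.34 on the log2 scale in J24 than in J12, and higher by 0.37 in J12 than in J0. Directions are given relative to that median gene, and values from the unscaled FPKM are given beside the groups of genes. Libraries of 1 time correlated at 0.983 to 0.989 in J24, at 0.984 to 0.991 in J12 and at 0.969 to 0.986 in J0, where replicate 2 stood farthest from the others. The leaf markers were all but 1 of 33 measured above the filter, and their summed level was 23506 to 32626 scaled FPKM in J24 and 4108 to 4728 in J12, against 41649 to 47399 in J0. Of 16 root markers 7 passed the filter, with summed levels of 519 to 588 in J24 and 140.4 to 210.3 in J12, against 332 to 349 in J0, and their part in the results was not tested. The markers of pollen and anther, of which 5 of 11 passed, had summed levels of 155 to 261 in J24 and 267 to 379 in J12. None of them was called in J24 vs J12, and 1 was lower on the unscaled FPKM. The 70 tested markers of dividing cells summed to 3254 to 3837 in J24 and 2547 to 2888 in J12, with 5 members that rose and 2 that fell, or 2 and 12 on the unscaled FPKM.

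A gene was called when its fitted log2 difference exceeded 1 and its adjusted p in limma was under 0.05. In J24 vs J12, 5001 genes were called, 21.0% of those tested, of which 2694 (11.3%) were higher in J24 and 2307 (9.68%) were lower. On the unscaled FPKM 1738 genes (7.30%) were higher and 4461 (18.7%) lower, so that the share of calls that were higher in J24 was 53.9% with the scaling and 28.0% without it. In J12 vs J0, 5984 genes were called (25.1%), 3034 of them higher (12.7%) and 2950 lower (12.4%). In J24 vs J0, 1844 genes were called (7.74%), 1227 higher (5.15%) and 617 lower (2.59%). That last count was 1157 without J24 replicate 3 and 1224 when only the J24 and J0 libraries were fitted. The B175 leaves had 5214 calls in B24 vs B12 (21.9%), 2753 higher (11.6%) and 2461 lower (10.3%).

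Each gene was then placed by its calls in the first interval (J12 vs J0) and in the second (J24 vs J12). Both comparisons contain the J12 libraries, so a library error in J12 enters them with opposite signs, and the classes describe each course without testing it. Genes that had risen by 12 h and fell afterwards numbered 1732, or 7.27% of those tested, and genes that had fallen by 12 h and rose afterwards numbered 1992, or 8.36%. A further 1281 genes (5.38%) that had risen and 956 (4.01%) that had fallen by 12 h were not called between 12 and 24 h. Genes called only in the second of these intervals were 681 that rose (2.86%) and 573 that fell (2.41%). Those that went on in the same direction were 21 upwards (0.0881%) and 2 downwards (0.00839%). On the unscaled FPKM the first 2 classes held 3483 and 1253 genes, and the upward course held 28 genes, 9 of which were among the 21.

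**Figure D1:**
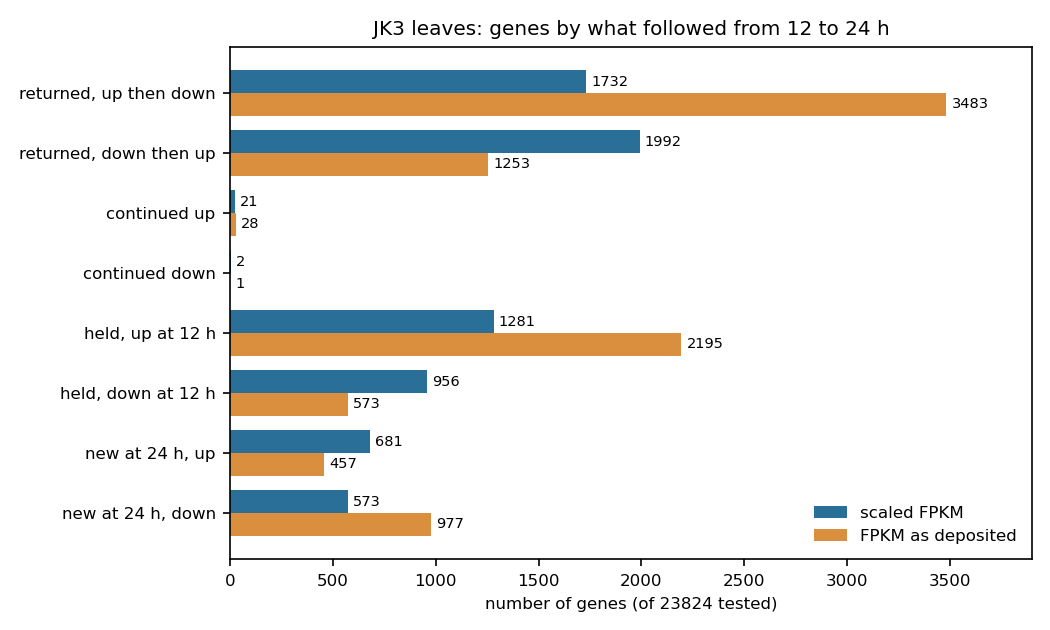
Number of genes (horizontal axis) in each of 8 courses over 0, 12 and 24 h in JK3 leaves, from scaled FPKM (blue) and from FPKM as deposited (orange). The 1732 genes that went up then down and the 1992 that went down then up exceed the 21 and 2 that continued in 1 direction, and the first pair changes to 3483 and 1253 on FPKM as deposited.

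Most of the genes that turned back came close to their level at 0 h. Of the 1732 that went up then down, 1560 lay within 1 log2 unit of J0 in J24, 145 lay above and 27 below, and their median J24 vs J0 difference was 0.21. Of the 1992 that went down then up, 1776 lay within 1 log2 unit, 81 above and 135 below, with a median of −0.24. B175 leaves had the same direction for many of these genes in B24 vs B12, where 1436 of the 1732 fell and none rose, and 1708 of the 1992 rose and 1 fell, beside 10.3% and 11.6% of all genes. Of the genes that had moved by 12 h and were not called afterwards, 487 of 1281 were still above J0 in J24 and 213 of 956 were still below it. Among all genes 5.15% were higher and 2.59% lower in J24 vs J0. These genes were chosen by J12 vs J0, which shares the J0 libraries with J24 vs J0. A library error in J0 enters both comparisons with the same sign, so these counts do not test whether the change lasted.

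The gene that rose most belongs to the clock. LATE ELONGATED HYPOCOTYL (LHY, Seita.6G055700), a MYB factor of the morning part of the clock, had 3961, 3619 and 2821 scaled FPKM in the J24 libraries and 4.72, 2.68 and 3.19 in the J12 libraries. It was higher in J24 by 9.59 on the log2 scale (SE 0.29, adjusted p = 1.79e-12), the largest increase among genes that met the naming rule. In J0 it had 6741, 6732 and 7904, above all 3 J24 libraries, and the J24 vs J0 difference was −1.05 (adjusted p = 0.0209). REVEILLE 2 (Seita.4G288100), a relative of LHY, had 317, 314 and 286 in J24, against 0.930, 0.543 and 1.18 in J12 (log2 difference 7.36, SE 0.21, adjusted p = 1.05e-12). The groups were far apart in both genes, and REVEILLE 2 did not differ from J0 beyond the threshold (−0.25, adjusted p = 0.442).

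Several genes of the evening part of the clock moved the other way. PRR1 (Seita.1G236100), the pseudo-response regulator known as TOC1 in Arabidopsis, had 0.531, 0.749 and 1.14 scaled FPKM in J24 and 111, 125 and 101 in J12 (log2 difference −5.98, SE 0.19, adjusted p = 3.49e-12). PCL1 (Seita.5G468100), the factor called LUX in Arabidopsis and part of its evening complex, had 0.819, 1.17 and 1.97 in J24 and 248, 237 and 193 in J12 (−6.64, SE 0.26, adjusted p = 3.47e-11). GIGANTEA (Seita.5G129500), which links the clock to flowering, had 27.0, 24.5 and 23.0 in J24 and 216, 209 and 202 in J12 (−3.03, SE 0.33, adjusted p = 2.25e-06). It fell in J24 without reaching J0, whose libraries had 2.24, 9.80 and 4.40, and J24 stayed higher by 2.17 (adjusted p = 9.69e-04). Adagio-like protein 3 (Seita.8G146900), a blue-light receptor of the F-box type, fell by 4.06 on the log2 scale.

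Of 11 genes in the morning list 6 rose and 2 fell from 12 to 24 h, with a median of 1.12. Of 16 in the evening list 1 rose and 7 fell, with a median of −0.70. The shares of all genes were 11.3% rising and 9.68% falling, with a median of 0.00. On the unscaled FPKM the counts were 5 and 2 in the morning list (median 0.64) and 0 and 9 in the evening list (median −1.17). Neither list was uniform. The evening list also held pseudo-response regulators other than PRR1 and several Adagio-like proteins, and the time of day at which each member peaks was not measured. The 2 copies of REVEILLE 1 ran opposite to each other: Seita.1G275400 had 108, 111 and 110.5 in J24 and 0.614, 0.754 and 0.583 in J12, while Seita.7G212900 had 1.31, 2.11 and 2.63 in J24 and 183, 156 and 151 in J12. PRR73 (Seita.9G445200) had 85.1, 88.3 and 59.3 in J24, which overlapped with the J12 values of 88.5, 105 and 83.3, and was not called (−0.26, adjusted p = 0.583). Of the ELF3-like genes, Seita.5G204600 rose by 1.10, an increase of 0.62 on the unscaled FPKM, and Seita.3G121000 fell by 1.32. In J24 vs J0 none of the 11 morning genes was higher and 2 were lower. Of the evening genes 1 was higher and 1 lower, beside 5.15% and 2.59% of all genes.

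**Figure D2:**
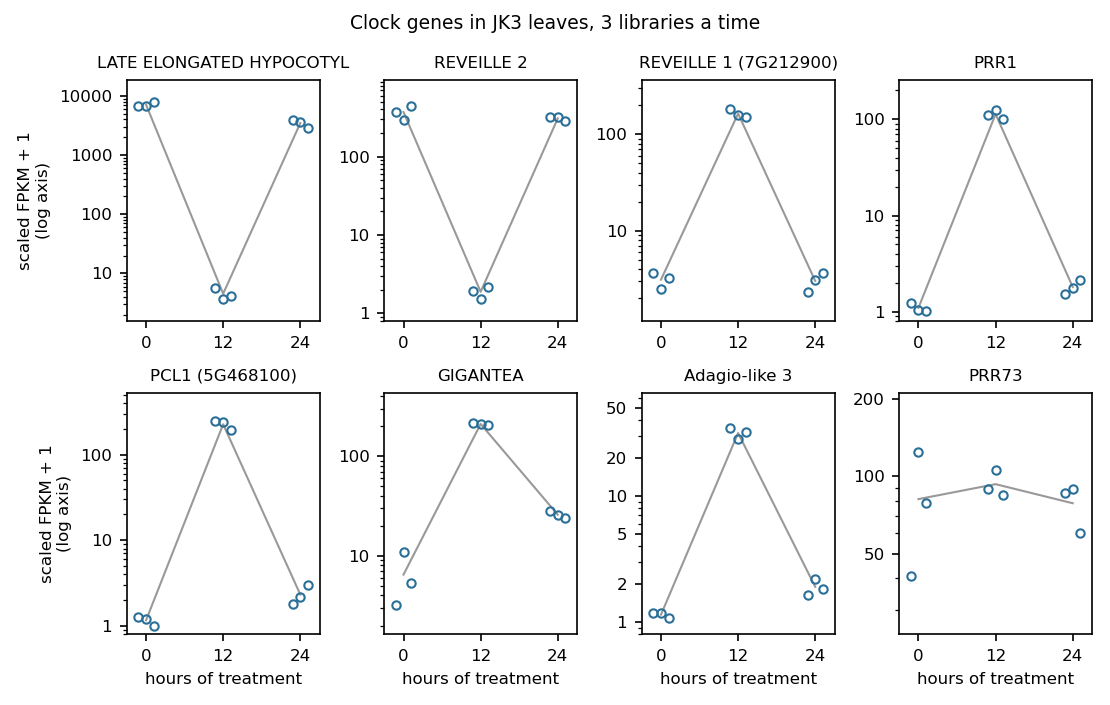
Scaled FPKM plus 1 (vertical axis, log scale) of 8 clock genes in JK3 leaves against hours of treatment (horizontal axis), with a circle for each of the 3 libraries a time and a line through their means. LHY and REVEILLE 2 are low only at 12 h, PRR1, PCL1, GIGANTEA, Adagio-like 3 and the REVEILLE 1 copy shown are high at 12 h, and PRR73 varies little.

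Genes of photosynthesis had fallen by 12 h and rose again by 24 h. Of 51 tested genes of the photosystems and light harvesting 32 rose in J24 vs J12 and none fell, against 11.3% and 9.68% of all genes, with a median log2 difference of 1.36. On the unscaled FPKM 20 rose and none fell. Their summed level was 23412 to 30446 scaled FPKM in J24 and 6339 to 6707 in J12, against 37272 to 46952 in J0. In J24 vs J0, 2 members were lower and none higher, beside 2.59% and 5.15% of all genes. The median was −0.56, so that most members lay below their first level without passing the test. The same course showed in the Calvin cycle, which fixes carbon dioxide, where 20 of 32 rose and 2 fell (median 1.71, or 1.35 with 18 rising and 4 falling on the unscaled FPKM), and in the C4 enzymes, which carry carbon into the bundle sheath, where 12 of 26 rose and 1 fell (median 1.01, or 0.51 with 8 rising on the unscaled FPKM). Photorespiration, which recovers carbon after rubisco takes up oxygen, had 9 of 28 rising and none falling, with a median of 0.21 that was −0.17 on the unscaled FPKM, where 5 rose and 1 fell. As the samples are whole leaves, fewer cells of a type and less RNA per cell cannot be told apart in any of these differences.

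The photosystem II 22 kDa protein 1 (Seita.5G395300), known as PsbS, which turns excess light energy into heat, had 2453, 1852 and 1536 scaled FPKM in J24 and 14.6, 16.6 and 13.1 in J12 (log2 difference 6.93, SE 0.43, adjusted p = 4.18e-09). The J24 vs J0 difference was 0.29. HIGH CHLOROPHYLL FLUORESCENCE PHENOTYPE 173 (Seita.1G093200), needed in Arabidopsis to translate a core protein of photosystem II, had 713, 548 and 409.5 in J24 and 0.682, 0.730 and 1.09 in J12 (8.22, SE 0.35, adjusted p = 7.24e-11). The most abundant photosystem member that rose, the photosystem II 10 kDa polypeptide (Seita.6G032200), changed less, by 2.37, with 3258, 3918 and 3150.2 in J24 and 779.8, 579 and 646 in J12. Among the C4 enzymes the NADP-dependent malic enzyme (Seita.5G134300), which releases carbon dioxide beside rubisco, had 2586, 2719.7 and 2247 in J24 and 224, 141 and 163 in J12 (3.85, SE 0.22, adjusted p = 1.92e-09). Pyruvate, phosphate dikinase 1 (Seita.3G247900), which regenerates the first acceptor of that pathway, had 7919, 8301 and 6011 in J24 and 1674, 1531 and 1265 in J12 (2.31, SE 0.33, adjusted p = 3.73e-05). Its 3 J24 libraries were all below the J0 libraries, which had 11292, 11487 and 11480.2, but the difference did not pass the test (−0.64, adjusted p = 0.192). The course was not shared by every gene of the cycle, since the transketolase Seita.5G381500 fell by 2.94, with 6.54, 8.41 and 17.2 in J24 and 85.7, 92.0 and 71.5 in J12.

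Enzymes that handle starch and sucrose were split by gene. Beta-amylase 1 (Seita.9G229700), which cuts maltose from starch in the plastid, had 525, 173 and 255 scaled FPKM in J24 and 0.836, 0.595 and 0.813 in J12 (log2 difference 7.36, SE 0.29, adjusted p = 2.44e-11). It also exceeded the J0 libraries, at 54.6, 50.8 and 60.6, by 2.35 (adjusted p = 3.99e-04). Beta-fructofuranosidase 1 (Seita.1G004600), an invertase that splits sucrose, had 2220.2, 1339 and 1627 in J24 and 13.5, 19.1 and 10.9 in J12, an increase of 6.81 that left it near J0. In the other direction the starch phosphorylase Seita.9G085600 fell by 3.45 and the starch phosphatase DSP4 (Seita.9G574300) fell by 3.14. Over the lists, 4 of 28 starch breakdown genes rose and 5 fell, 7 of 19 starch synthesis genes rose and 2 fell, and 8 of 20 sucrose genes rose and 3 fell, beside 11.3% and 9.68% of all genes. The increases and decreases on the unscaled FPKM were 4 and 6 in starch breakdown, 7 and 4 in starch synthesis and 5 and 4 in sucrose genes.

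Among the 6 largest decreases 2 genes encode enzymes of thiamine synthesis. Thiamine thiazole synthase 2 (Seita.4G199600) had 7.59, 14.2 and 10.8 scaled FPKM in J24 and 2678, 3989 and 1754 in J12 (log2 difference −7.85, SE 0.42, adjusted p = 7.42e-10), the largest decrease among genes that met the naming rule. Phosphomethylpyrimidine synthase (Seita.9G140100), which makes the other part of the vitamin, had 2.83, 2.23 and 3.07 in J24 and 583, 614 and 435 in J12 (−7.19, SE 0.25, adjusted p = 6.30e-12). The 2 genes were high at 12 h alone, with J0 means of 2.92 and 2.90. A light-regulated protein of the chloroplast (Seita.5G067800), 2 copies of the chaperone dnaJ C76 (Seita.4G151000 and Seita.3G017100) and a bifunctional nuclease (Seita.5G285600) completed the 6 largest decreases, with differences between −7.43 and −7.19. Catalase isozyme 3 (Seita.1G117500), which breaks down hydrogen peroxide, had 102, 97.6 and 149 in J24 and 1929, 1946 and 1339.9 in J12 (−3.90, SE 0.33, adjusted p = 1.27e-07), and was near its J0 values of 112, 240.2 and 109.

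The aquaporins that rose after 12 h had fallen before. Aquaporins are the water channels of the cell and vacuole membranes. Of 27 tested, 13 rose and 2 fell in J24 vs J12, beside 11.3% and 9.68% of all genes. The median was 0.54, or 0.26 with 13 rising and 3 falling on the unscaled FPKM. All 13 increases on the scaled FPKM had followed a fall by 12 h, as had 1992 of 2694 among all genes. PIP1-1 (Seita.7G196700), the most abundant plasma membrane channel among those that rose, had 4735, 3454 and 3966 scaled FPKM in J24 and 315, 274 and 324 in J12 (log2 difference 3.72, SE 0.21, adjusted p = 1.63e-09). PIP2-1 (Seita.2G123000) and the vacuolar TIP1-1 (Seita.9G541300), both picked after their values were seen, rose by 4.69 and 2.60 and lay within 0.23 log2 units of J0. TIP4-2 (Seita.3G082100) ran the other way, with 26.2, 25.4 and 37.5 in J24 and 529.9, 392 and 401 in J12 (−3.86, SE 0.34, adjusted p = 2.64e-07), and J24 was still above the J0 libraries, at 4.08, 5.20 and 6.17, by 2.31 (adjusted p = 8.94e-04).

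Among 43 potassium and sodium transporters and channels 14 rose and 1 fell, beside 11.3% and 9.68% of all genes. Of the 14, 13 had fallen by 12 h, beside 1992 of the 2694 that rose among all genes. On the unscaled FPKM 9 rose and 2 fell, with a median of 0.06 in place of 0.46. Probable potassium transporter 16 (Seita.9G182400) had 168, 162 and 184 in J24 and 26.7, 21.7 and 39.6 in J12 (2.55, adjusted p = 5.25e-07). Of 29 cation and proton antiporters 7 rose and none fell, or 5 and 1 on the unscaled FPKM, where the median was −0.07 in place of 0.38. Of the 7, 3 had fallen by 12 h and 4 were called only afterwards. They were led in level by the vacuolar exchanger 1a (Seita.5G194500), which trades calcium for protons, at 339, 356 and 354 in J24 and 67.9, 57.7 and 42.4 in J12 (2.65, adjusted p = 3.06e-08). The proton pumps that power such exchange had 5 of 33 rising and 1 falling, beside 11.3% and 9.68% of all genes, and 27 that were not called. The increases were 3 without J12 replicate 2 and also 3 on the unscaled FPKM, where the median was −0.19 in place of 0.24. Plasma membrane ATPase 1 (Seita.2G068600) rose by 2.62, with 701, 451 and 466 in J24 and 88.2, 79.0 and 89.1 in J12, and J24 exceeded all J0 libraries (299, 225 and 316) by 0.93, short of the limit of 1. The vacuolar pyrophosphatase Seita.4G053800 was the pump that fell, by 1.29.

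**Figure D3:**
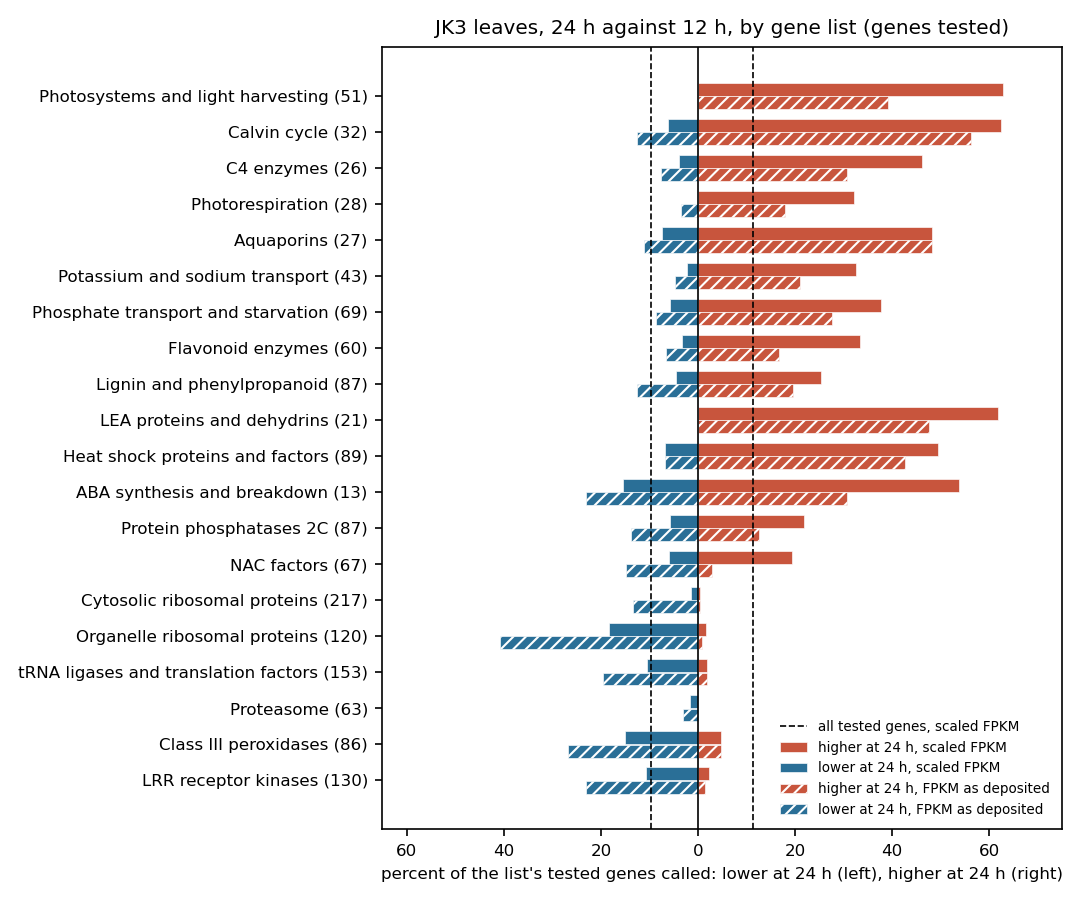
Percent of each list's tested genes (horizontal axis) that were higher in J24 than in J12 (red, right) or lower (blue, left), from scaled FPKM (plain) and FPKM as deposited (hatched), for 20 lists with the number tested in brackets. Dashed lines mark all tested genes, at 11.3% higher and 9.68% lower; photosystem genes (32 of 51 higher) and LEA proteins (13 of 21 higher) lie far to the right of theirs.

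Heat shock and desiccation genes formed the main group that rose past the level of 0 h. Of 89 heat shock proteins and factors 44 rose and 6 fell in J24 vs J12, beside 11.3% and 9.68% of all genes. The median was 1.02, or 0.64 with 38 rising on the unscaled FPKM. Of the 44, 24 had fallen by 12 h, 19 were called only in the second interval and 1 rose in both. The same counts over all genes were 1992, 681 and 21 of the 2694 that rose. In J24 vs J0, 32 were higher and none lower (median 0.75), beside 5.15% higher among all genes, and the summed level was 7444 to 12037 scaled FPKM in J24 and 2415 to 2536 in J12, against 4159 to 5434 in J0. In B175, 44 of the list rose and 5 fell in B24 vs B12. Members of these families are similar in sequence, so that fragments may be divided among copies in ways the counting does not show.

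The 18.6 kDa class III heat shock protein (Seita.1G342400), a small chaperone, had 1575, 851 and 1087 scaled FPKM in J24 and 6.16, 3.53 and 6.33 in J12 (log2 difference 7.52, SE 0.34, adjusted p = 1.20e-10), and J24 exceeded the J0 values of 376, 254 and 404 by 1.74 (adjusted p = 0.00333). The 16.9 kDa class I heat shock protein 1 (Seita.5G092900) was flat until 12 h and had 77.1, 63.8 and 84.7 in J24, against 3.26, 3.65 and 4.47 in J12 (3.99, SE 0.47, adjusted p = 5.24e-06). Heat shock protein 81-1 (Seita.6G200000), of the HSP90 family, and the heat stress factor A-2c (Seita.9G247700) rose by 2.30 and 2.11 and stood above J0 by 1.31 and 1.61. These last 3 genes were picked after their values were seen. The most abundant member that rose, heat shock 70 kDa protein 4 (Seita.9G451900), had 1772, 727 and 864 in J24 and 57.0, 83.1 and 67.6 in J12 (3.90, adjusted p = 3.70e-06), but its J0 libraries varied between 264 and 985 and overlapped with J24. The factor C-1b (Seita.5G307400) belonged to the members that fell, with 7.78, 9.79 and 11.9 in J24 and 107, 106 and 87.0 in J12 (−3.23, adjusted p = 4.10e-08).

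LEA proteins and dehydrins had 13 of 21 tested members that rose and none that fell (median 1.90), beside 11.3% and 9.68% of all genes. On the unscaled FPKM 10 rose. Of the 21, 11 were higher in J24 than in J0 with none lower, beside 5.15% and 2.59% of all genes. In B175, 10 of the list rose and none fell in B24 vs B12. Of the 13, 9 were called only in the second interval, 2 had fallen before and 2 rose in both intervals. Dehydrin DHN1 (Seita.8G115400), the most abundant, had 4251, 3385 and 5679 scaled FPKM in J24 and 821, 774 and 1007 in J12 (log2 difference 2.33, SE 0.46, adjusted p = 7.43e-04). Its J0 values of 915, 823 and 1016 overlapped with J12, and J24 exceeded them by 2.24 (adjusted p = 0.00456). Another gene annotated as DHN1 (Seita.5G166300) had 111, 275 and 499 in J24 and 10.5, 3.37 and 26.5 in J12 (4.48, SE 0.80, adjusted p = 3.00e-04), and the one numbered next to it (Seita.5G166200, picked after its values were seen) had 112, 327 and 568 in J24 and 22.8, 5.84 and 59.4 in J12. Replicate 1 was the lowest of the J24 libraries and replicate 2 the lowest of the J12 libraries in both, and the groups did not overlap.

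Of 13 tested genes of ABA synthesis and breakdown, 7 rose and 2 fell, beside 11.3% and 9.68% of all genes. On the unscaled FPKM 4 rose and 3 fell. Members of both kinds were among the increases and among the decreases. NCED4 (Seita.2G035400), a dioxygenase of the step that commits carotenoids to ABA, had 185, 95.1 and 146 scaled FPKM in J24 and 28.6, 40.6 and 33.3 in J12 (log2 difference 1.99, SE 0.49, adjusted p = 0.00414), and J24 exceeded the J0 libraries (16.7, 65.0 and 25.4) by 2.14. NCED1 (Seita.1G288400), an enzyme of the same step, had 43.3, 84.9 and 68.5 in J24 and 31.1, 37.8 and 17.7 in J12 (1.17, adjusted p = 0.0126), and lay below its J0 values of 103, 115 and 266. Its call was lost on the unscaled FPKM (0.68, adjusted p = 0.106) and without J12 replicate 3 or J24 replicate 2 (adjusted p = 0.0732 and 0.0644). Both NCED genes were picked after their values were seen. ABA 8'-hydroxylase 1 (Seita.1G288100), which breaks ABA down, had 9.86, 17.0 and 22.0 in J24 and 83.6, 105 and 84.9 in J12 (−2.47, SE 0.61, adjusted p = 0.00432), whereas 8'-hydroxylase 3 (Seita.2G229900) rose by 2.61.

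Protein phosphatases 2C, a family whose clade A members hold ABA signalling back, had 19 of 87 rising and 5 falling, with 11 rising and 12 falling on the unscaled FPKM. The shares of all genes were 11.3% rising and 9.68% falling, or 7.30% and 18.7% on the unscaled FPKM. Phosphatase 37 (Seita.6G005300) had 112, 94.5 and 118 in J24 and 7.12, 4.73 and 6.26 in J12 (3.96, SE 0.29, adjusted p = 3.47e-08), and exceeded J0 by 1.22 (adjusted p = 0.0109). In the NAC family of transcription factors 13 of 67 rose and 4 fell, but on the unscaled FPKM 2 rose and 10 fell, and without J12 replicate 2 the increases were 8. NAC2 (Seita.9G039200) had 1115, 975 and 979.8 in J24 and 539, 369.8 and 491 in J12, without overlap, yet its call (1.15, adjusted p = 0.0126) was lost on the unscaled FPKM (0.64, adjusted p = 0.0980) and without J12 replicate 2 (adjusted p = 0.0592).

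Cytosolic ribosomal proteins had risen by 12 h and for the most part were not called afterwards. Of 217 tested, 106 had risen in J12 vs J0 and none had fallen. From 12 to 24 h 1 rose and 3 fell (median −0.19), and 103 of the 106 were not called. In J24 vs J0, 78 were higher and none lower, with a median of 0.84, beside 5.15% higher among all genes. The summed level was 35644 to 36438 scaled FPKM in J24 and 37558 to 41700.4 in J12, against 17892 to 24297 in J0. The scaling bears on this group, since 29 fell with the unscaled FPKM and 26 with quantile normalization, and the number that fell was 6 without J24 replicate 3.

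The acidic protein P1 (Seita.6G085600), part of the ribosomal stalk, had 357, 332 and 371 scaled FPKM in J24, which overlapped with 341, 229.9 and 401 in J12 (log2 difference 0.16, SE 0.23, adjusted p = 0.628). J24 exceeded its J0 libraries (124, 135 and 97.9) by 1.58 (adjusted p = 7.35e-04). L5-1 (Seita.5G413500) had 417, 401 and 404 in J24 and 571, 537 and 529 in J12, all lower in J24, without passing the threshold (−0.42, SE 0.18, adjusted p = 0.0757). Both were picked after their values were seen. The only cytosolic ribosomal protein that rose in the second interval, L10-1 (Seita.8G124200), had 228, 151 and 232 in J24 and 24.5, 21.5 and 46.5 in J12 (2.74, SE 0.45, adjusted p = 1.32e-04).

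Other parts of the machinery that makes proteins turned back more often than the cytosolic ribosomal proteins, but not clearly more often than all genes. Of 120 ribosomal proteins of plastids and mitochondria 22 fell and 2 rose in J24 vs J12 (median −0.36), with 49 falling on the unscaled FPKM, and in J24 vs J0 4 were higher and 3 lower. Of the 35 that had risen by 12 h, 19 turned back, beside 1732 of the 3034 among all genes. Among 153 tRNA ligases and translation factors 16 fell (10.5%, beside 9.68% of all genes) and 3 rose, with 30 falling on the unscaled FPKM. Of the 29 that had risen by 12 h, 15 turned back. Of 63 genes of the proteasome, the main protease of the cytosol, 1 fell and none rose, both fewer than among all genes (9.68% and 11.3%).

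The GO terms that the table attaches to the genes were ranked in the same comparison. Among the 653 terms with 20 to 500 tested genes, the highest median log2 differences in J24 vs J12 belonged to photosystem I (22 genes, 16 up and none down, median 1.99), chlorophyll binding (28 genes, 18 up, median 1.56), photosystem II (31 genes, 21 up and 2 down, median 1.49) and protein complex oligomerization (24 genes, 14 up and 1 down, median 1.45). These 4 medians were 1.49, 1.06, 0.99 and 1.13 on the unscaled FPKM. Photosystem I lay at −0.53 against J0 and protein complex oligomerization at 0.99. The lowest medians belonged to the chloroplast nucleoid (20 genes, 1 up and 10 down, median −1.31), Group II intron splicing (22 genes, none up and 11 down), ribosome biogenesis (44 genes, 15 down, median −0.76) and tRNA processing (24 genes, 1 up and 9 down, median −0.76). The lowest of these medians, that of the chloroplast nucleoid, was −1.71 on the unscaled FPKM. By 12 h ribosome biogenesis had a median of 0.98 and the chloroplast nucleoid 1.70, and against J0 the 24 h leaves still stood at 0.30 and 0.25. Terms share genes, and no term was tested.

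Of the 21 genes that rose in both intervals 14 had a description. The J24 and J12 libraries of 19 did not overlap, beside 12766 of the 23824 genes tested. Because the 21 were chosen by their calls in this comparison, that count adds no support. Their increases ran between 1.04 and 2.79 in J24 vs J12 and between 2.16 and 4.79 in J24 vs J0. Each of the 2 steps had to exceed 1, which sets a floor under both ranges. The number depended on single libraries, as it was 9 without J12 replicate 2, 10 without J12 replicate 1 or J24 replicate 3 and 12 without J0 replicate 3, and it was 11 with no filter on low values. In B24 vs B12 8 of the 21 were called higher, beside 11.6% of all genes. None of the 21 passed the test of a difference between the varieties that is described below. With 3 libraries a group, that result does not show that the changes were equal in JK3 and B175.

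LEA protein 17 (Seita.9G420500) had 0.939, 3.86 and 1.17 scaled FPKM in J0, 9.79, 4.82 and 18.4 in J12 and 51.5, 42.7 and 62.8 in J24. The step from 12 to 24 h was 2.30 on the log2 scale (SE 0.49, adjusted p = 0.00130), that before it 1.97, and no library of a later time lay below one of an earlier time. A LEA protein of group 3 (Seita.3G162400) had 29.9, 62.2 and 42.9 in J0, 311, 226 and 493 in J12 and 527, 1389 and 2488 in J24, with the largest total rise of the set. Its second step of 1.90 (SE 0.66, adjusted p = 0.0325) was lost in 7 of 18 alternatives, among them the unscaled FPKM (1.40, adjusted p = 0.104), no filter on low values (adjusted p = 0.0517) and the fits without J24 replicate 3 (adjusted p = 0.151), J12 replicate 2 (0.117), J24 replicate 2 (0.0852) or J12 replicate 1 (0.0772). The 17.5 kDa class II heat shock protein (Seita.5G131300) had 1.35, 4.28 and 1.61 in J0, 9.22, 5.40 and 18.4 in J12 and 56.6, 27.8 and 33.4 in J24 (1.83, adjusted p = 0.00649).

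TWIN SISTER of FT (Seita.2G271200), whose Arabidopsis namesake carries the signal to flower, was low throughout J0, with 1.30, 0.982 and 0.571 scaled FPKM in J0, 5.22, 5.17 and 3.21 in J12 and 15.3, 17.8 and 28.2 in J24 (second step 1.93, SE 0.26, adjusted p = 1.97e-05). EID1-like F-box protein 3 (Seita.3G193800) had 0, 1.81 and 0.516 in J0, 4.55, 1.87 and 5.16 in J12 and 15.9, 15.3 and 15.3 in J24 (1.84, adjusted p = 5.33e-04). The monooxygenase Seita.9G010800, annotated for 4-hydroxyphenylacetaldehyde oxime and thus for a step that leads to cyanogenic glucosides in sorghum, rose by 1.58, a call that was lost without J12 replicate 2 (1.08, adjusted p = 0.0563). The kinase MAPKKK17 (Seita.5G284300) and the F-box protein SKP2A (Seita.5G403700), picked after their values were seen, rose by 1.33 and 1.28 in the second step, less than 1 on the unscaled FPKM, where the adjusted p was 0.0609 and 0.0774.

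The downward course had 2 genes, and 1 had a description. Peroxidase 4 (Seita.8G015100), a secreted peroxidase that acts on the cell wall, had 8.31, 15.4 and 14.8 scaled FPKM in J0, 2.84, 5.79 and 2.11 in J12 and 0.726, 1.34 and 0.520 in J24. Its second step was −1.24 (SE 0.40, adjusted p = 0.0223), and it was lost without J12 replicate 2 (adjusted p = 0.120), J24 replicate 3 (0.0776) or J24 replicate 1 (0.0601). The number of genes in this course was between 1 and 4 with single libraries left out. Class III peroxidases as a whole had 4 of 86 rising and 13 falling in J24 vs J12, beside 11.3% and 9.68% of all genes, or 4 and 23 on the unscaled FPKM.

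**Figure D4:**
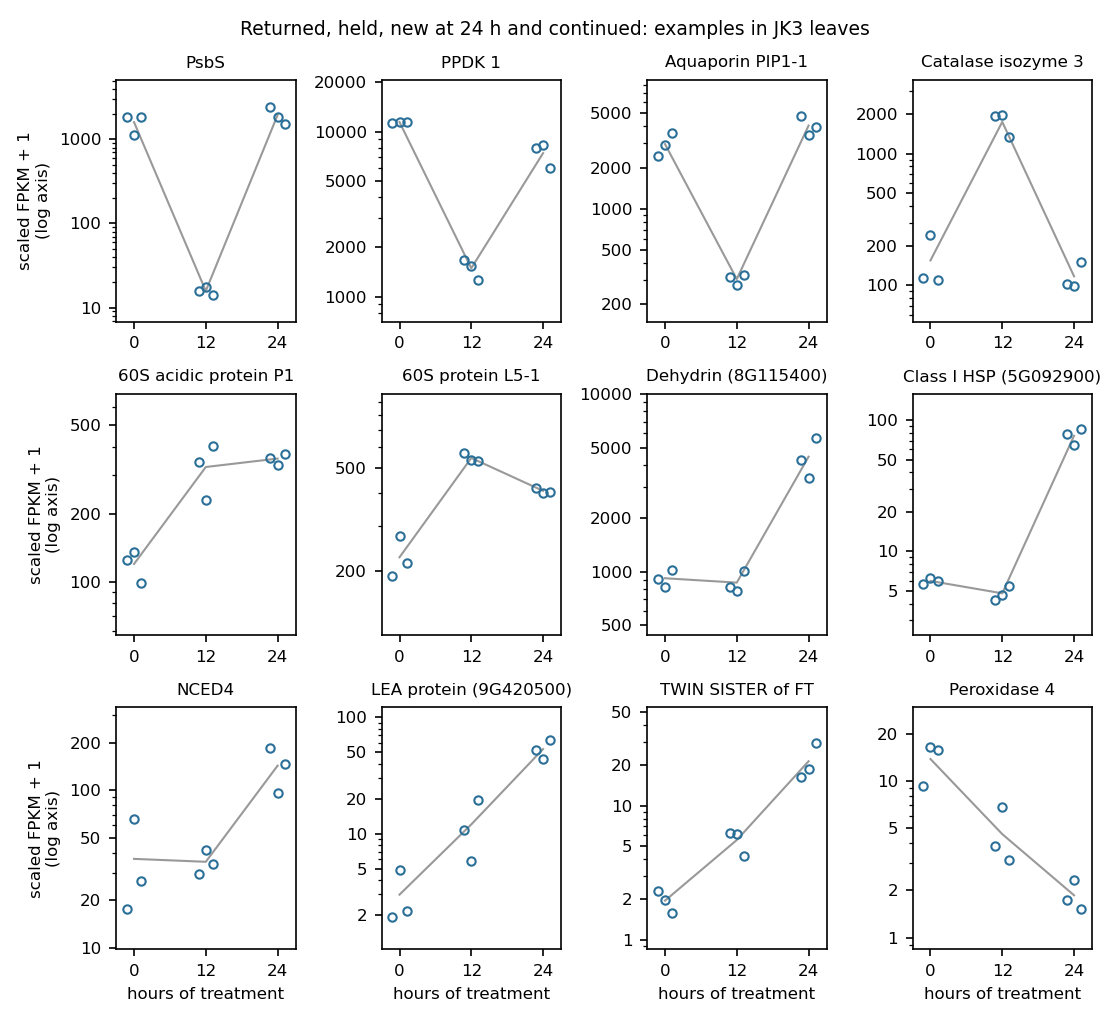
Scaled FPKM plus 1 (vertical axes, log scale) of 12 genes in JK3 leaves against hours of treatment (horizontal axes), with a circle for each of the 3 libraries a time and a line through their means. PsbS, PPDK 1 and PIP1-1 dip at 12 h and catalase 3 peaks there, the ribosomal proteins P1 and L5-1 stay up after 12 h, the dehydrin, the class I heat shock protein and NCED4 rise after 12 h, and the LEA protein, TWIN SISTER of FT and Peroxidase 4 move in 1 direction throughout.

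Among genes called only after 12 h, the histone variant H2AXa (Seita.9G112800), which is phosphorylated at DNA breaks, had 119, 109 and 157 scaled FPKM in J24 and 33.1, 30.5 and 32.1 in J12 (log2 difference 1.96, adjusted p = 3.43e-04). J24 was above J0 by 2.42. Vacuolar iron transporter 2 (Seita.2G197500), which unlike these had already fallen by 12 h (−1.55, adjusted p = 0.0328), had 70.7, 70.6 and 109 in J24 and 7.90, 1.79 and 8.02 in J12 (3.77, adjusted p = 5.57e-05), and was above J0 by 2.21. The ethylene-responsive factor Seita.9G509400, again called only after 12 h, had 189.8, 47.5 and 51.6 in J24 and 9.35, 7.24 and 5.08 in J12 (3.29, adjusted p = 9.38e-04), while its J0 libraries (5.44, 51.5 and 9.58) overlapped with J24.

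Genes of secondary metabolism and of phosphate transport also had more increases than decreases in J24 vs J12. Of 87 lignin and phenylpropanoid genes 22 rose and 4 fell, and 20 of the 22 had fallen by 12 h. Trans-cinnamate 4-monooxygenase (Seita.5G361200), an early enzyme of that pathway, rose by 5.57 to a mean of 141 ± 33.7 in J24, against 1.97 ± 0.571 in J12 (SD, n = 3 each). Of 60 flavonoid genes 20 rose and 2 fell, and of the 20, 11 had fallen by 12 h and 9 were called only afterwards. Of 69 genes of phosphate transport and starvation 26 rose and 4 fell, and 19 of the 26 had fallen by 12 h. Of all genes that rose, 1992 of 2694 had fallen by 12 h. Among all genes 11.3% rose and 9.68% fell. The lignin and phenylpropanoid list had 17 rising and 11 falling on the unscaled FPKM, the flavonoid list 10 and 4 and the phosphate list 19 and 6.

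Whether the change from 12 to 24 h was larger or smaller in JK3 than in B175 was tested gene by gene as the difference of J24 vs J12 and B24 vs B12. Of 23824 genes 51 passed an adjusted p of 0.05 in limma (0.214%), 31 with a higher (0.130%) and 20 with a lower (0.0839%) value in JK3, and 1911 had an unadjusted p under 0.05. The test with voom on fragment counts called 7. The number was 24 without J12 replicate 1 or J24 replicate 3, 29 without J12 replicate 2, 32 without B12 replicate 2, 79 without J24 replicate 1 and 83 without B24 replicate 2, a library that correlated at 0.954 and 0.956 with the others of its group. No member of the clock lists was among the 51.

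Cytochrome P450 704C1 (Seita.7G206600) fell in JK3 to 0.129, 0.290 and 0.445 scaled FPKM in J24, against 15.3, 15.8 and 15.3 in J12. In B175 it had 0.254, 0.214 and 0 in B24 and 1.48, 1.08 and 0.641 in B12, so that the varieties were apart at 12 h and overlapped at 24 h (difference of the changes −2.86, SE 0.22, adjusted p = 2.39e-05). RPM1 (Seita.8G089200), annotated as a disease resistance protein, had 46.6, 37.7 and 29.9 in J24 and 14.6, 16.7 and 17.7 in J12, but 65.9, 73.2 and 80.6 in B24 and 125, 124 and 121 in B12 (1.90, SE 0.20, adjusted p = 5.72e-04). It rose by 1.15 in JK3 and its change in B175 was −0.75.

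Beta-glucosidase 12 (Seita.7G134800) had 33.9, 54.8 and 31.3 scaled FPKM in J24 and 65.4, 82.1 and 68.2 in J12, against 40.0, 74.7 and 49.2 in B24 and 11.5, 11.9 and 7.27 in B12 (difference of the changes −3.16, SE 0.36, adjusted p = 0.00109). The universal stress protein Seita.2G428900 had 35.2, 50.6 and 49.6 in J24 and 21.7, 14.8 and 19.9 in J12, against 29.1, 44.4 and 19.4 in B24 and 96.4, 129 and 77.0 in B12 (2.94, SE 0.43, adjusted p = 0.00663). In both genes the difference between the 24 h and 12 h groups had opposite signs in JK3 and B175. The factor BHLH6 (Seita.7G045100) rose in both varieties, by 3.53 in JK3 and 1.37 in B175, and Peroxidase 2 (Seita.2G431000) fell in both, with log2 differences of −1.64 in JK3 and −3.88 in B175.

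**Figure D5:**
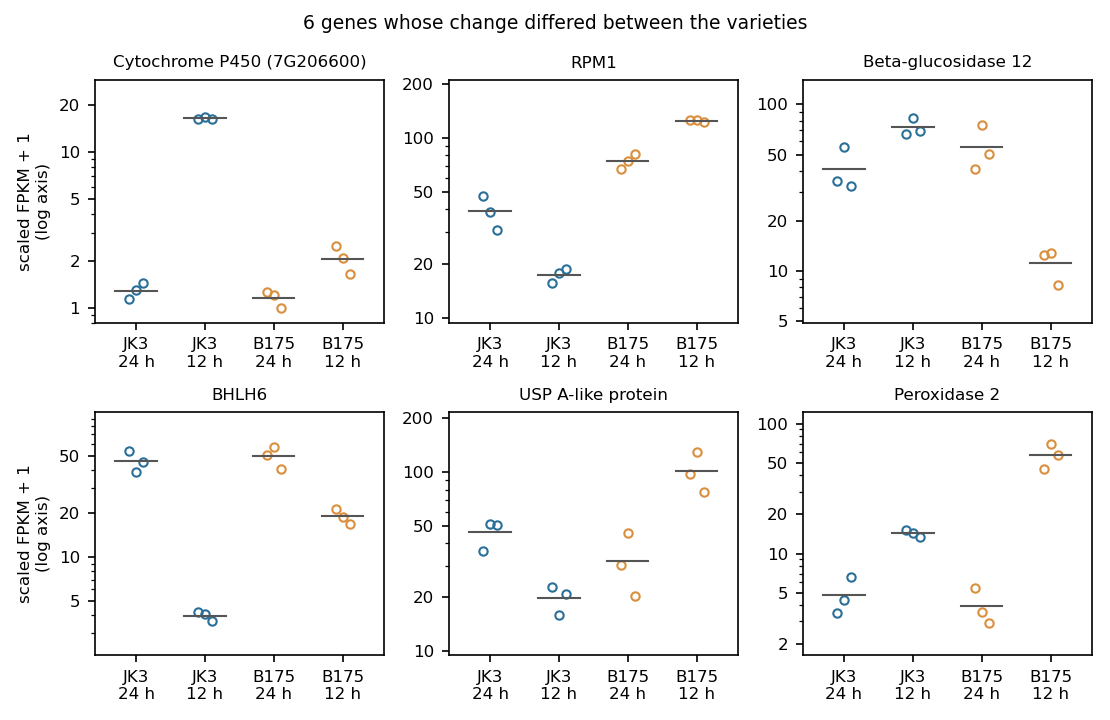
Scaled FPKM plus 1 (vertical axes, log scale) of 6 genes whose change from 12 to 24 h differed between JK3 (blue) and B175 (orange), with a circle a library and a bar at the mean of 3. RPM1 is higher at 24 h than at 12 h in JK3 and lower in B175, beta-glucosidase 12 is the reverse, and the cytochrome P450 gene differs between the varieties mainly at 12 h.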

How the data were processed

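RNA of leaves was sequenced in 18 libraries, 3 in each of 6 groups of variety and time. The authors deposited 1 table of FPKM values per gene and library with descriptions and GO terms. The submitters' notes name fastp, HISAT2, HTSeq, R 3.2.0 and DESeq2 without saying what each was used for. The genome build and the strand setting of the counting are not given in usable form in the sources used here, since the build listed belongs to another organism. No fragment counts were given, but 99.9966% of genes gave whole fragments (within 0.05) in every library, from which the depth of 34738947 to 38799089 fragments was recovered. The p-values rest on the spread between libraries within the groups, pooled over all 6 groups and moderated across genes. An exact permutation test of 3 against 3 cannot go below p = 0.1, so tests were run across all genes.

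Here FPKM were scaled by median ratios over 19497 genes, and log2(scaled FPKM + 1) was fitted with limma 3.58.1 (R 4.3.3, trended variance, Benjamini-Hochberg adjustment) in 1 model of all 6 groups. Fold changes on this scale understate those of low genes. Genes needed a mean deposited FPKM of at least 0.1, and a call needed an absolute log2 difference over 1 and an adjusted p under 0.05; the variety difference needed the adjusted p alone. Tables were handled with Python 3.11.15, numpy 2.4.6 and pandas 2.3.3, and plots drawn with matplotlib 3.10.9. In simulated data with 200 genes changed 4-fold among 23284 tested, 89% of them were called and 0 unchanged genes. All simulated libraries were drawn from the J12 means with a fixed spread, and as many genes were raised as lowered. The shift in the share of the most abundant genes between J12 and J24 was not simulated, so this result does not bear on the scaling.

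The genes named were the 6 largest increases and decreases and the 6 largest of each returning and continuing course, among called genes with a description, no overlap between J24 and J12 and a mean of at least 5 scaled FPKM in the highest group, then the most changed and most abundant called members of each list, the clock genes, and the 6 smallest p of the variety difference. Genes outside this rule are marked. The comparison and the 53 gene lists were chosen with earlier results of these data known. Of 29108 genes 20331 had a description and 17519 a GO term. Copies of similar sequence (ribosomal proteins, heat shock proteins, dehydrins) may share fragments. Alternatives were FPKM as deposited, quantile normalization, a pseudocount of 0.1, no filter, a filter at 1, a replicate block, only JK3 libraries, only the compared groups, voom on the recovered fragments, and each library left out. No gene sequence was used.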

Additional observations from a re-analysis of the deposited data

Results flagged for a closer look

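The change from 12 to 24 h differed between JK3 and B175 in 51 genes at an adjusted p under 0.05 in limma, and 10 of these are given here. The first 6 have the smallest p among genes with a description that met the naming rule, 1 was named as a member of the phosphate list, and the other 3 were picked after their values were seen. The difference of the log2 changes, JK3 minus B175, was −2.86 for cytochrome P450 704C1 (Seita.7G206600), 1.90 for RPM1 (Seita.8G089200), −3.16 for beta-glucosidase 12 (Seita.7G134800), 2.16 for the factor BHLH6 (Seita.7G045100), 2.94 for the universal stress protein Seita.2G428900 and 2.24 for Peroxidase 2 (Seita.2G431000), whose libraries are described above. Probable inactive purple acid phosphatase 27 (Seita.6G222500) fell in both varieties, with 12.8, 16.0 and 11.5 scaled FPKM in J24 and 34.2, 37.8 and 45.8 in J12, against 2.58, 4.33 and 5.79 in B24 and 53.6, 49.5 and 45.0 in B12 (difference 1.83, SE 0.31, adjusted p = 0.0204).

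The rubisco activase B gene Seita.8G250600, whose protein keeps rubisco active, had 566, 617 and 414 scaled FPKM in J24 and 48.1, 60.4 and 37.7 in J12, against 22.0, 62.2 and 59.4 in B24 and 19.9, 26.6 and 22.4 in B12 (difference 2.53, SE 0.49, adjusted p = 0.0482). The gene numbered next to it, Seita.8G250500, annotated as the pentatricopeptide repeat protein ELI1, had the same pattern at 177, 202 and 157 in J24 and 17.6, 25.4 and 11.0 in J12, against 6.85, 23.6 and 22.5 in B24 and 8.92, 11.4 and 11.1 in B12 (difference 2.77, SE 0.53, adjusted p = 0.0481). Whether fragments of this pair overlap was not tested. HEADING DATE 3A (Seita.4G067600), the rice name of a flowering signal, had 3.55, 1.76 and 1.88 in J24 and was listed at 0 in all J12 libraries, while the B24 and B12 libraries had at most 0.0611 and 0.234 (difference 1.77, SE 0.26, adjusted p = 0.00663). Its fitted difference depends on the pseudocount of 1, and at such levels it rests on few fragments.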

How the results depend on the processing

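No gene named and called in J24 vs J12 changed sign under the alternatives run. However, the balance of increases and decreases turned on the unscaled FPKM for all genes and for the courses that went up then down and down then up. It also turned for many gene lists, among them NAC factors (2 rose and 10 fell), phosphatases 2C (11 and 12) and sugar transporters (9 and 16). Further examples on the unscaled FPKM were MYB factors (13 and 18), ethylene genes (3 and 23) and auxin response genes (7 and 21). The median of photorespiration turned to −0.17 there. The unscaled FPKM moved most counts: in J24 vs J12, 1738 genes rose and 4461 fell, 3483 went up then down and 1253 down then up, 1 continued down, 2195 and 573 were not called after rising or falling by 12 h, and 977 fell after 12 h alone. The causes of the other moves were not tested. J24 vs J0 had 1224 calls with only those groups fitted, and 1157 to 2155 with single libraries left out. The 51 variety differences were 21 with a pseudocount of 0.1, 25 with a mean FPKM of at least 1, 7 with voom, and 24 to 83 with single libraries left out. The 21 genes that continued up were 11 with no filter and 9 to 23 with single libraries left out, and the 2 that continued down were 1 to 4. J24 vs J12 stayed between 4671 and 5073 calls with single libraries left out.

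With the replicate number as a block, J24 vs J12 had 5070 calls and 4 genes continued down. Same-numbered J24 and J12 libraries correlated at −0.0291, 0.0334 and 0.227 in their deviations from the group means, and differently numbered ones at −0.242 to 0.181. With 3 libraries a group, this check cannot show whether replicates of different times share plants, trays or days.

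Of 210 genes named and called in J24 vs J12, 167 held under every alternative. The unscaled FPKM lost 28 and quantile normalization 23, voom lost 0 and the block 1, and leaving out 1 J12 or J24 library lost between 8 and 14. Of 106 counts over gene lists, 58 moved by over 1.5 times on the unscaled FPKM, 22 with the pseudocount of 0.1, 20 with voom and 13 with quantile normalization. Depth was even, but genes near 0 in a group rest on few fragments and their fold changes on the pseudocount.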

Other observations

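CONSTANS-like factors and light receptors were divided almost evenly, with 15 of 41 rising and 12 falling in J24 vs J12, against 11.3% and 9.68% of all genes, or 14 and 12 on the unscaled FPKM. The 15 had all fallen by 12 h, beside 1992 of the 2694 that rose among all genes. B-box zinc finger protein 25 (Seita.1G225000) had 842, 977 and 975 scaled FPKM in J24 and 24.7, 19.6 and 21.2 in J12 (log2 difference 5.35, adjusted p = 1.31e-11 in limma), and CONSTANS-LIKE 5 (Seita.4G192300) had 647, 1011 and 811 in J24 and 278, 177 and 225 in J12 (1.86). CONSTANS itself (Seita.3G119200), which reads day length in Arabidopsis, ran the other way, with 51.5, 36.7 and 40.7 in J24 and 153, 164 and 173 in J12 (−1.92, adjusted p = 2.72e-05). The factor GHD7 (Seita.9G323600), which delays flowering in rice, had 174, 112 and 119.6 in J24 and 0.260, 0.0230 and 0.207 in J12. No J24 library of these 4 genes overlapped with a J12 library, but they were named as called genes, so this adds no support. Of the 23824 genes tested, 12766 had no overlap.

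Carriers and soluble sugars had large changes in single genes and no common direction. Of 62 sugar transporters 14 rose and 10 fell, or 9 and 16 on the unscaled FPKM. The shares of all genes were 11.3% rising and 9.68% falling, or 7.30% and 18.7% on the unscaled FPKM. Polyol transporter 5 (Seita.3G352300) had 64.6, 59.6 and 59.7 in J24 and 1.68, 1.83 and 2.23 in J12 (4.42), while SWEET17 (Seita.5G021600), a fructose carrier of the vacuole in Arabidopsis, had 8.57, 5.90 and 4.18 in J24 and 127, 153 and 113 in J12 (−4.23). Galactinol synthase 2 (Seita.9G424800), the first enzyme on the way to raffinose, had 3646, 2197 and 2394 in J24 and 335, 224 and 265 in J12 (3.30, adjusted p = 8.32e-08). Of 93 nitrate and ammonium genes 13 rose and 17 fell, or 10 and 27 on the unscaled FPKM. In J24 vs J0, 2 of 107 genes of auxin response were higher and 14 lower, or 2 and 12 on the unscaled FPKM, beside 5.15% and 2.59% of all genes. Among them auxin efflux carrier component 1a (Seita.1G317400) had 52.7, 49.1 and 42.3 in J24, below all J0 libraries at 147, 60.1 and 192 (−1.30, adjusted p = 0.0167).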
